A study of Homo sapiens with 9 samples.

Results

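The zinc finger genes of chromosome band 19q13.4 were examined in MEL624, a human melanoma cell line, by precision run-on sequencing (PRO-seq), which reads the 3′ ends of RNA still held by engaged RNA polymerase. Every protein-coding gene on chromosome 19 whose symbol begins with ZNF and whose annotated start lies in that band was taken, from ZNF175 (start at 51571283) to the chromosome end, which gave 99 of the 58336 rows of the table. The rule uses symbol and position and no measured value, but it was set with earlier results of these data known. The 9 libraries formed 3 groups of 3 biological replicates. PCIF1 knockout clone 1 (labelled KO1) and PCIF1 knockout clone 2 (labelled KO2) are single clones of MEL624. The control was wild-type MEL624 carrying a random guide RNA, and both clones were set against it. The cells had no further treatment that the labels name. PCIF1 writes a methyl group onto an adenosine that stands next to the cap of an mRNA, and the knockout removes that enzyme.

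C2H2 zinc finger proteins read DNA through tandem fingers, each of which contacts a few bases. Many of those encoded on chromosome 19 also carry a KRAB domain, which recruits TRIM28 (KAP1) and, through it, the histone methyltransferase SETDB1 and heterochromatin proteins, and a well-known target of such complexes is the DNA of transposable elements. The genes lie in clusters that grew by tandem duplication, so neighbours resemble each other in coding sequence and in promoter sequence. Several promoters of these clusters are known to be methylated and silent in tumours.

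The authors deposited 1 mean per group, so every value below is a mean over replicates without an error, and no test was possible. A level is given as a normalized count per gene, or per kb of the gene's length where different genes are compared. Ratios are log2 after adding a pseudocount of 1, over control unless stated. Of the 99 genes, 93 had a mean of at least 10 normalized counts over the 3 groups and were compared. The yardstick is how far the clones differ from each other, taken as the central 95% of clone 2 over clone 1 (log2) among all genes of like count. That range ran from -1.01 to 1.05 for counts of 10 to 50, from -0.50 to 0.63 for 50 to 200, from -0.35 to 0.53 for 200 to 1000 and from -0.38 to 0.58 above. It holds true differences between the clones and is no error of replicates. Each knockout genotype is 1 clone, so an effect of the knockout and a peculiarity of a clone cannot be told apart. In a mean over many cells, fewer transcribing cells and less transcription per cell cannot be told apart either.

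The 5 promoters shown next belong to genes on which the results turn. ZNF677 and ZNF835 are the members with 10 or more counts in both clones and a listed value of 0 in control. ZNF701, ZNF525 and ZNF845 lie in the same run of genes and share much of their promoter sequence, yet differ in their values. Each sequence is 300 bases of GRCh38.p14 from the promoter table of RefSeq, 250 before the start base and 50 from it on, read 5′ to 3′, with CpG dinucleotides in capitals.
ZNF677, chr19:53254774-53255073, - strand: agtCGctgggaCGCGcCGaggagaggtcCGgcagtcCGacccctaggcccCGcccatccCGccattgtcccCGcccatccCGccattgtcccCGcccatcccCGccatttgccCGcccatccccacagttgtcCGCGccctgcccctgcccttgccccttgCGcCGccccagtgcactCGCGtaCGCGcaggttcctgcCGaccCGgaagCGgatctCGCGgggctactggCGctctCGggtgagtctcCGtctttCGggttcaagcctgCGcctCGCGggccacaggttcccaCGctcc
ZNF835, chr19:56671708-56672007, - strand: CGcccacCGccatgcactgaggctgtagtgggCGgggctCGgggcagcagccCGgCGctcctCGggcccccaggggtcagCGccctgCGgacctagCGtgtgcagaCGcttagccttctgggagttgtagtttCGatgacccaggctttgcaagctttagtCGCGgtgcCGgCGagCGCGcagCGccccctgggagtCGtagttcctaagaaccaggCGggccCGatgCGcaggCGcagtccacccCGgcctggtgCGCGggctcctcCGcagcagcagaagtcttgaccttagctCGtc
ZNF701, chr19:52570037-52570336, + strand: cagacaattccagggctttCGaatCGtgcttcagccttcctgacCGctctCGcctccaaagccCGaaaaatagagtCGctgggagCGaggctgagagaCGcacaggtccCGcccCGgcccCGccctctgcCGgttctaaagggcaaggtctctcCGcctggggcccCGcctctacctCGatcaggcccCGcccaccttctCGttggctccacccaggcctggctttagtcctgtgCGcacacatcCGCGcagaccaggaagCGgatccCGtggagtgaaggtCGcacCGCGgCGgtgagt
ZNF525, chr19:53365455-53365754, + strand: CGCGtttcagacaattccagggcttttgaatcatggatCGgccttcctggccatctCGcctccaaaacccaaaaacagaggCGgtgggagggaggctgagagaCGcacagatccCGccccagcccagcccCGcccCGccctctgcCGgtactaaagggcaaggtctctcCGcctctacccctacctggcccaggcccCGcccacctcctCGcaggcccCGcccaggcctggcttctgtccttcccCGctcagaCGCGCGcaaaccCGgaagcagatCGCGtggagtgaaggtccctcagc
ZNF845, chr19:53333499-53333798, + strand: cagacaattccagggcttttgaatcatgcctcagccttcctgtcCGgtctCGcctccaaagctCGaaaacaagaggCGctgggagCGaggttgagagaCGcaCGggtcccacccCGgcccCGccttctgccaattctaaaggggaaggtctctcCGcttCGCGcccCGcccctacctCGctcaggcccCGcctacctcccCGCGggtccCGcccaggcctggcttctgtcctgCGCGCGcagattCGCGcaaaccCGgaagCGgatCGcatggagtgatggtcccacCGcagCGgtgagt

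Most of the 99 genes had similar values in the 3 groups, and a small set was higher in the clones. In clone 1, 9 of the 93 compared genes (9.68%) were at least 2-fold above control, against 2.27% of the 17149 genes compared across the table. In clone 2, 10 of 93 (10.8%) were, against 3.34% of all compared genes. At least 2-fold below control were 2 genes in clone 1 (2.15%, against 1.32% of all) and none in clone 2 (1.9% of all). For the 93 genes the median log2 ratio stood at -0.03 (clone 1) and 0.02 (clone 2), and for all compared genes at -0.005 and -0.004. Both comparisons use the same control mean, so their overlap carries no weight of its own. At least 10 counts were reached by 92 of the 99 genes in clone 1, by 94 in clone 2 and by 88 in control. ZNF610, ZNF677, ZNF835, ZNF836 and ZNF813 passed the floor only through the clones and therefore had to come out higher. Here and below, that fixes the direction for all of them, but the floor did not require 2-fold for ZNF836 and ZNF813. Among the 88 genes with 10 or more counts in control, 4 were at least 2-fold higher in clone 1 (1.21% of all such genes) and 5 in clone 2 (2.08%), while 2 were lower in clone 1 (2.07%) and 0 in clone 2 (2.76%). This other floor was added after the values had been seen.

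**Figure D1:**
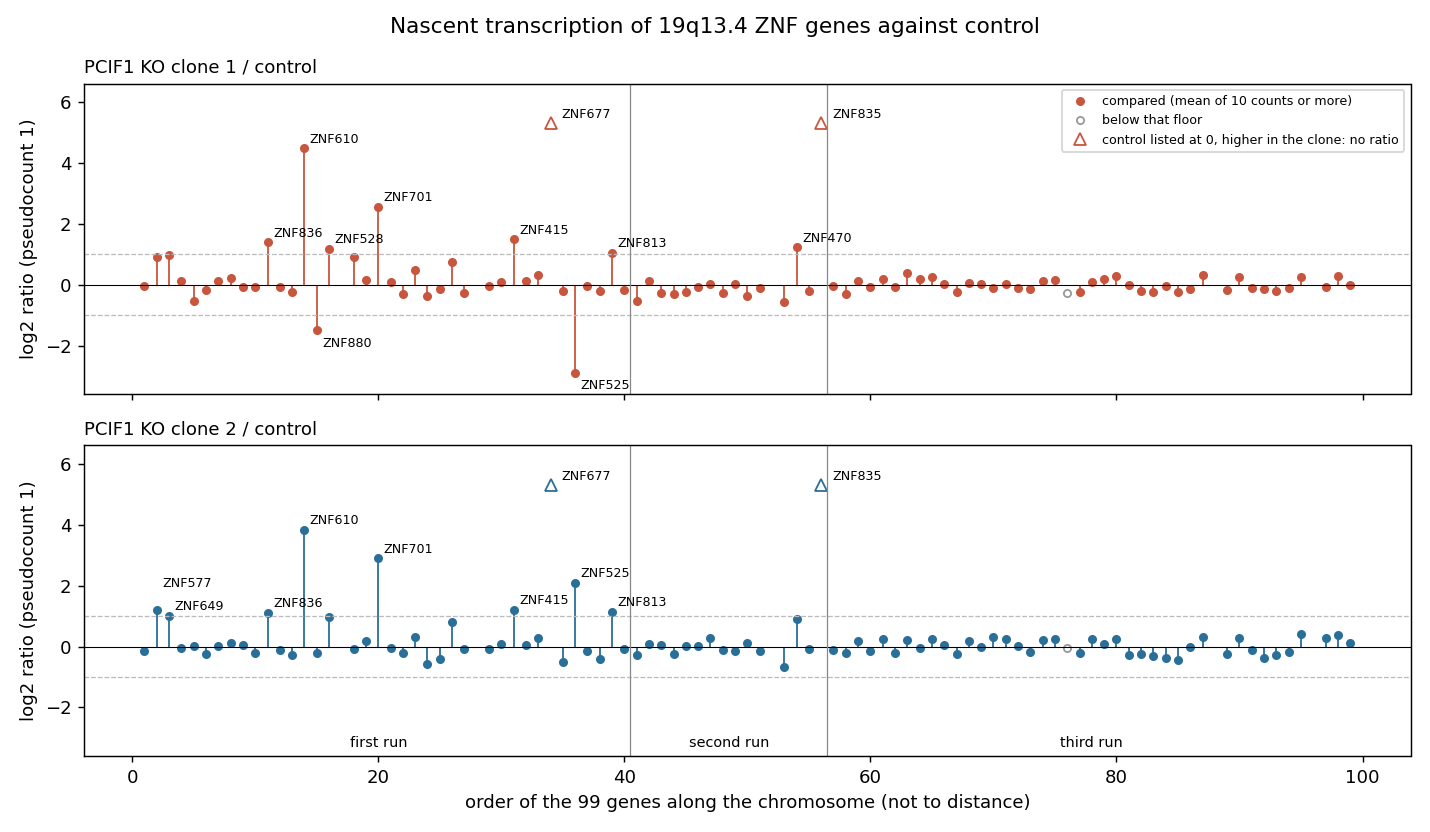
Log2 ratio to control of each 19q13.4 ZNF gene in clone 1 (upper) and clone 2 (lower), against gene order along the chromosome. Dashed lines mark 2-fold, vertical lines divide the 3 runs, triangles (at an arbitrary height) mark ZNF677 and ZNF835, whose control is listed at 0, and other genes listed at 0 in control are not drawn. The named genes lie in the first and second runs, and all 40 compared genes of the third run stay within 1.5-fold in both clones.

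ZNF677 encodes a KRAB protein with 10 fingers, and its promoter is known to be methylated in several tumours. Among the members listed at 0 in control, it had the highest counts in both clones. Its normalized count was 78.06 in clone 1 and 92.73 in clone 2, and it was listed at 0 in control. Values were rounded to 0.01 per kb, so a listed 0 means less than 0.005 per kb, and no ratio is given. The gene lies at chr19:53235381-53254898 on the minus strand. ZNF835, with 14 fingers and no KRAB pattern, had 15.35 in clone 1, 20.14 in clone 2 and 0 in control. It is the last gene of the second run, at chr19:56661980-56671783 on the minus strand. ZNF610, a KRAB gene with 8 fingers, had 36.95 in clone 1, 23.33 in clone 2 and 0.71 in control, log2 ratios of 4.47 and 3.83. The 3 genes were thus near or at the lower limit of the table in control and well above it in both clones.

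ZNF701 was the member with the largest ratio among those that reached 10 counts in control. It had 120.98 in clone 1 and 152.52 in clone 2, against 19.59 in control, which is a log2 ratio of 2.57 and 2.90. Its span overlaps that of ZNF808 on the same strand. Of the 12 members at least 2-fold higher in a clone, 7 overlap an annotated gene on the same strand. Reads of such overlaps may have been counted for either gene. ZNF528, a KRAB gene with 15 fingers, had 222.12 in clone 1 and 189.02 in clone 2, against 96.90 in control (1.19 and 0.96). ZNF470 (17 fingers) had 186.96 in clone 1 and 149.99 in clone 2, against 79.33 in control (1.23 and 0.91). Both clones stood above control in each of these genes, and each ratio was outside the range of clone 2 to clone 1 for its count.

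ZNF415, whose product has been described as a repressor of AP-1 and p53 reporter activity, had 51.90 in clone 1, 41.96 in clone 2 and 17.65 in control (1.504 and 1.204). ZNF577 and ZNF649 are neighbours, and the product of ZNF649 has been described as a repressor of reporters driven by SRE and AP-1. ZNF577 had 117.68 in clone 1 and 142.46 in clone 2, against 61.96 in control (0.91 and 1.19). ZNF649 had 120.78 in clone 1 and 124.27 in clone 2, against 61.24 in control (0.97 and 1.01). Their spans overlap on the same strand, so reads of the overlap may have been counted for either. They were the only pair next to each other among the 10 genes at least 2-fold higher in clone 2, and none of the 9 in clone 1 had such a neighbour.

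ZNF836 and ZNF813 were higher at low counts. ZNF836 had 16.93 in clone 1, 13.84 in clone 2 and 5.86 in control (1.39 and 1.11). ZNF813 had 20.79, 22.35 and 9.55 in the same order (1.05 and 1.15), and its ratio in clone 1 was inside the yardstick range. ZNF320 stayed below 2-fold but was measured at high counts. It had 438.77 in clone 1 and 463.86 in clone 2, against 263.43 in control, log2 ratios of 0.73 and 0.81 that lay above the range of 0.53. In all, 11 genes lay above the range in clone 1 (4.36% of all compared genes did) and 13 in clone 2 (7.12%). Among them are ZNF610, ZNF677, ZNF835 and ZNF836 in both clones and ZNF813 in clone 2. These passed the floor only through the clones and had to come out higher, so no excess is read from these counts.

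ZNF525 went in opposite directions in the clones. It had 1.51 counts in clone 1 and 78.12 in clone 2, against 17.55 in control, which gives log2 ratios of -2.89 and 2.09. Between the clones the difference was 4.98 on the log2 scale. The span of ZNF525 overlaps that of ZNF765 on the same strand. ZNF880 was the other gene with a low value in clone 1. It had 12.12 in clone 1, 30.68 in clone 2 and 36.07 in control (-1.498 and -0.23). ZNF525 and ZNF880 were the 2 members at least 2-fold higher in clone 2 than in clone 1, where 1.05% of all compared genes were, and no member was at least 2-fold lower (0.933% of all). ZNF578 was just short of that, with 47.59 in clone 1, 23.36 in clone 2 and 24.95 in control.

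**Figure D2:**
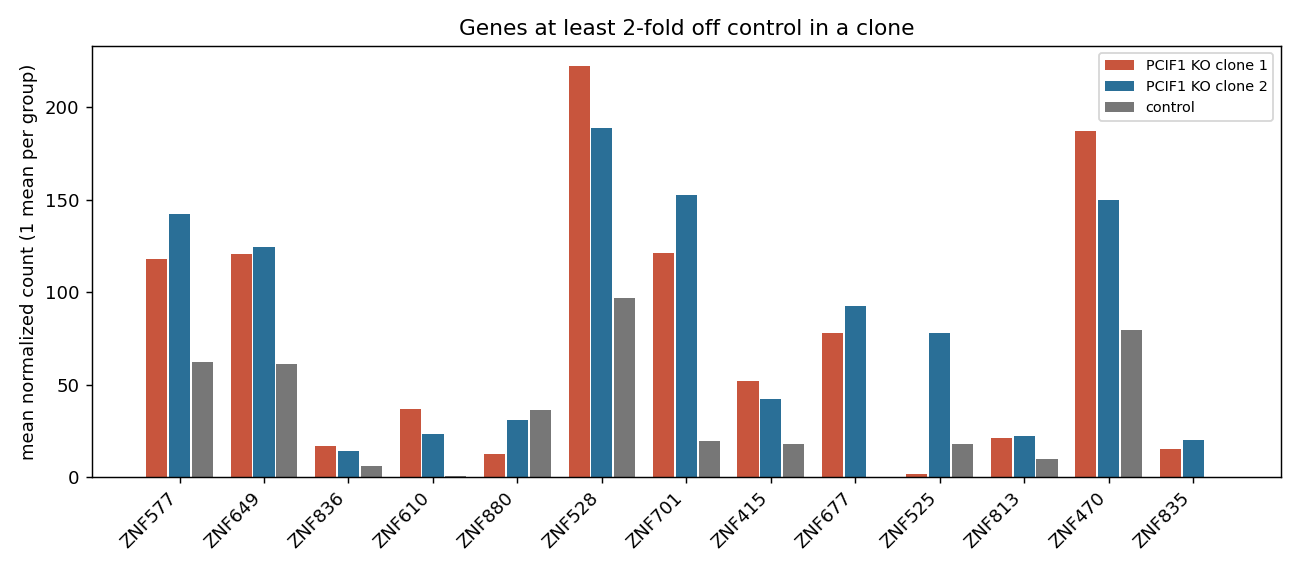
Mean normalized count in clone 1, clone 2 and control of the 13 genes at least 2-fold off control in a clone, in chromosomal order. Bars are single deposited means with no error. ZNF677 and ZNF835 have no control bar because they are listed at 0, and ZNF525 is the gene at 1.51 in clone 1 and 78.12 in clone 2.

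Smaller gaps below control were few. Below the yardstick range lay 4 genes in clone 1 (4.25% of all compared genes): ZNF350, ZNF628, ZNF880 and ZNF525. In clone 2 only ZNF845 did (6.78% of all). ZNF350, also called ZBRK1, is a repressor that binds BRCA1. It had 51.43 in clone 1, 75.80 in clone 2 and 74.35 in control (-0.52 and 0.03). ZNF845 had 89.31 in clone 1 and 72.14 in clone 2, against 103.38 in control (-0.21 and -0.51). At a mean of 50 counts or more, clone 2 over clone 1 ranged from -0.32 (ZNF470) to 0.55 (ZNF350) on the log2 scale. Besides ZNF350 and ZNF582, ZNF550 was among the 3 with the largest ratio of clone 2 to clone 1, with 185.57 in clone 1, 248.19 in clone 2 and 200.58 in control. In the other direction ZNF587B stood among the 3, with 140.60 in clone 1, 114.32 in clone 2 and 140.34 in control.

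The genes fell into 3 runs separated by at least 0.5 Mb. The first spans chr19:51571283-53580269, with 40 genes from ZNF175 to ZNF331. The second spans chr19:55476617-56671783, with 16 genes from ZNF628 to ZNF835. The third spans chr19:57191500-58481230, with 43 genes from ZNF264 to ZNF446. These limits use GRCh38 positions, and the runs were drawn by distance alone.

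Genes off control by 2-fold or more lay mostly in the first run. There, 7 of 38 compared genes were at least 2-fold higher in clone 1 (18.4%) and 9 in clone 2 (23.7%). In the second run the counts were 2 of 15 in clone 1 (ZNF470 and ZNF835) and 1 in clone 2 (ZNF835). Of these, ZNF610, ZNF677, ZNF813 and ZNF836 in the first run and ZNF835 in the second passed the floor only through the clones and had to come out higher. Among genes with 10 or more counts in control, 3 of 34 in the first run were at least 2-fold higher in clone 1 (8.82%) and 5 in clone 2 (14.7%), against 1.21% and 2.08% of all such genes. In the second run 1 of 14 was in clone 1 (ZNF470) and 0 in clone 2, and in the third run 0 of 40 in both. None of the 40 compared genes of the third run was 2-fold off or outside the yardstick range in either clone. ZNF135 of that run, below the floor and so not compared, had 0 in clone 1, 12.32 in clone 2 and 0 in control. Log2 ratios of the third run ranged from -0.29 (ZNF805) to 0.37 (ZNF548) in clone 1 and from -0.44 (ZNF418) to 0.40 (ZNF584) in clone 2. All 40 were within 1.5-fold of control in both clones, whereas in the first run 25 of 38 were in clone 1 and 27 in clone 2. Of all compared genes, 88.1% were in clone 1 and 83% in clone 2. The third run was also somewhat higher per kb. Its compared genes had a median of 30.15 per kb in clone 1, 28.00 in clone 2 and 29.86 in control, and those of the first run 15.98, 17.08 and 15.01.

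Some genes of the third run serve as examples. ZNF274, whose product binds the ends of zinc finger genes and recruits SETDB1 there, had 595.98 in clone 1 and 601.48 in clone 2, against 500.31 in control (0.25 and 0.27). ZNF544 had 671.65, 665.44 and 722.41 in the same order (-0.10 and -0.12). ZNF417 and ZNF587 encode close relatives that repress endogenous retroviruses of the HERV-K family. ZNF587 had 152.22 in clone 1, 144.94 in clone 2 and 178.68 in control. ZNF417 had 29.43 in clone 1, 23.08 in clone 2 and 30.06 in control. Of the words of 42 bases in their annotated sequence, 29.4% (ZNF587) and 38.0% (ZNF417) occur elsewhere on chromosome 19, so reads of that length may not be placed uniquely. These members were picked as examples after their values had been seen.

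Levels per kb spread widely within each group. The median of the 99 genes was 20.01 per kb in clone 1, 20.03 in clone 2 and 20.34 in control, below the median of about 30 of all compared genes. ZNF581 and ZNF580, small overlapping genes without a KRAB pattern, were the highest with ZNF584. ZNF581 stood at 259.54 per kb in clone 1, 310.72 in clone 2 and 254.63 in control. In control ZNF580 stood at 142.15 per kb and ZNF584 at 120.21.

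At the other end, 6 genes fell below the floor. ZNF667, ZNF132 and the readthrough gene ZNF816-ZNF321P were listed at 0 in all 3 groups. ZNF534 had 0.30 in clone 1, 0.36 in clone 2 and 0 in control, and ZNF154 had 0.74, 1.03 and 1.09. ZNF135, in the third run, had 0 in clone 1, 12.32 in clone 2 and 0 in control. Listed at 0 were 4 of the 99 genes in clone 1, 3 in clone 2 and 7 in control.

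Several silent members belong to a list of 9 genes known for promoter methylation in tumours (ZNF154, ZNF671, ZNF677, ZNF471, ZNF582, ZNF667, ZNF132, ZNF135 and ZNF331). The list was written with the result for ZNF677 known and is no independent evidence. Of its 5 members above the floor, only ZNF677 was at least 2-fold higher. ZNF582 had 60.27 in clone 1, 84.15 in clone 2 and 77.42 in control. ZNF471 had 22.66, 20.76 and 33.78, and ZNF671 had 61.14, 62.34 and 71.84. ZNF331, an imprinted gene, had 125.89 in clone 1 and 134.16 in clone 2, against 140.50 in control. DNA methylation itself was not measured here.

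Promoter sequence was available for 87 of the 99 genes in the RefSeq table. ZNF649 and ZNF610 are among the 12 without an entry. The 87 windows held a median of 24 CpG dinucleotides, and the 15276 windows of all protein-coding genes 22. Observed over expected CpG was 0.83 and 0.77. Genes listed at 0 in control did not have CpG-poor promoters. Their 7 windows held 20 to 42 CpG, with a median of 29. The window of the readthrough gene ZNF816-ZNF321P (25 CpG) is also that of ZNF816, which had 63.19 counts in control. Its 0 therefore does not mark that promoter as silent. ZNF677 had 34, ZNF835 had 29, and ZNF667, at 0 in every group, had 42.

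**Figure D3:**
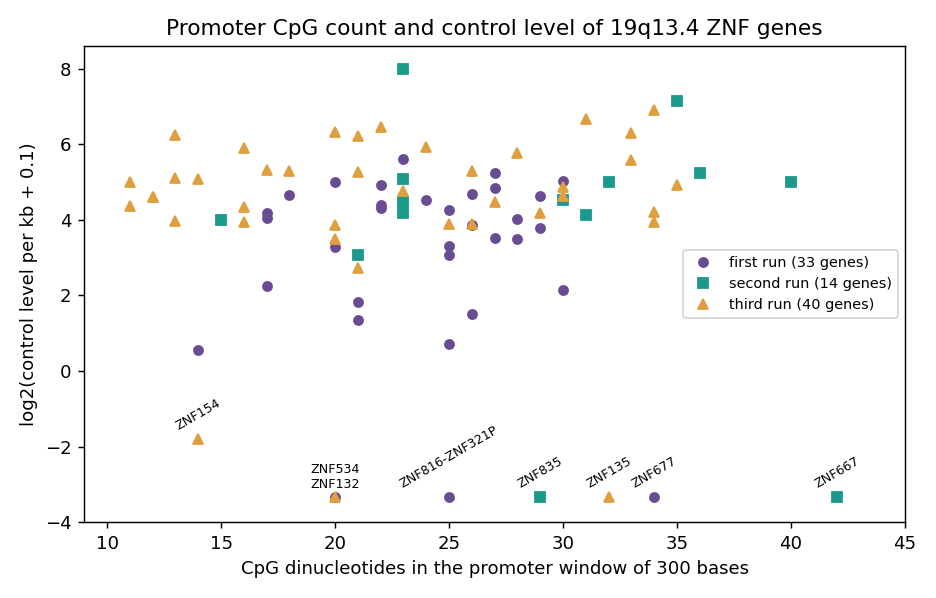
CpG dinucleotides in the 300-base promoter window (horizontal) against the control level on the scale log2(per kb + 0.1) (vertical), for the 87 genes with a RefSeq window, by run. The 7 genes listed at 0 in control form the bottom row between 20 and 42 CpG, and ZNF667, at 42, has the most of all 87. ZNF816-ZNF321P, in that row, has the same window as ZNF816, which is drawn at its own level.

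The shared origin of the first run is visible in its promoters. When each of the other 86 windows was aligned to that of ZNF701, 9 had at least 75% of 300 bases identical, and the median of all was 52.7%. All 9 lie in the first run (ZNF845, ZNF611, ZNF468, ZNF765, ZNF761, ZNF83, ZNF525, ZNF808 and ZNF813), with 77.3% to 86% identity. Their values did not follow that of ZNF701, which was chosen for its high ratio. ZNF845 has the closest promoter (86%) and had fewer counts in the clones than in control, as given above. ZNF525 (80%) was low in clone 1 and high in clone 2. ZNF765 had 119.61 in clone 1 and 110.73 in clone 2, against 121.84 in control. ZNF808, whose product silences MER11 elements in the developing pancreas, had 77.12 in clone 1, 78.07 in clone 2 and 68.71 in control. ZNF813 is the one other relative at least 2-fold higher in both clones. Between 7.71% and 22.3% of the words of 42 bases of these 10 genes recur on chromosome 19, 12.4% for ZNF701.

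Another shared stretch was found in the third run. The 8 letters CTACATTA, searched on both strands, occurred in 15 of 87 promoters, all 15 among the 40 of the third run. They occurred in 0.406% of all 15276 promoters (62). The word was picked after scanning all words of 8 letters, so its frequency is a description. In the 14 promoters with a match on the gene's strand it began 67 to 145 bases before the start base (ZNF749 held it at 2 places), and ZNF132 held it on the other strand. In 12 of these 14 the word was followed by CC. The 30-base windows of 11 of the 15 genes are shown, first ZNF805 and ZNF132 and then 9 others. They are from RefSeq, GRCh38.p14, read 5′ to 3′ along the gene, with CTACATTA or its reverse complement in capitals. ZNF132 shows the reverse complement, so its surrounding letters as printed are not directly comparable with those of the others.
ZNF805, chr19:57240482-57240511, + strand: tagagaaaaaCTACATTAactacaaggcat
ZNF132, chr19:58440325-58440354, - strand: tccttctggaTAATGTAGtttgcgttgcct
ZNF17, chr19:57411041-57411070, + strand: ggcctgggaaCTACATTAcccaaaagacac
ZNF772, chr19:57477633-57477662, - strand: gccgtgggaaCTACATTAcccaggaaactt
ZNF416, chr19:57578989-57579018, - strand: cttctgagaaCTACATTAcccataatgccg
ZNF530, chr19:57599781-57599810, + strand: gcggtgagaaCTACATTAcccagaggcccg
ZNF551, chr19:57681869-57681898, + strand: gttttggaaaCTACATTAtccagagtgcag
ZNF586, chr19:57769532-57769561, + strand: tgtctgggaaCTACATTAcccagaatccgc
ZNF587B, chr19:57830159-57830188, + strand: acctagggaaCTACATTAcccagaaaactc
ZNF587, chr19:57849733-57849762, + strand: aagtggggaaCTACATTAcccagaaagctc
ZNF418, chr19:57935481-57935510, - strand: acctggggaaCTACATTAcccagaaagctc
The genes that hold the word had narrow ratios, as the rest of the third run had. For the 13 compared, log2 ratios ranged from -0.29 to 0.24 in clone 1 and from -0.44 to 0.31 in clone 2. For the 24 compared genes of the run with a promoter window and without the word, they ranged from -0.24 to 0.37 and from -0.37 to 0.40. ZNF416, for example, had 158.42 in clone 1 and 183.75 in clone 2, against 155.71 in control. ZNF551 had 462.99, 490.72 and 412.41.

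Of the 6 motifs searched, the ETS letters CCGGAAG stood out in number, again on both strands. They occurred in 54 of 87 windows (62.1%), against 14.4% of all promoters. They were in 63.6% of windows of the first run, 42.9% of the second and 67.5% of the third. The ZNF genes of 19p12 held them in 72.4% and those of 19p13 in 15.6%. Of the 10 members with a window that were at least 2-fold higher in a clone, 5 held them. The TATA letters TATAAA occurred in 1 member, 1.15% against 9.62% of all. A match of letters says nothing about the binding of a factor.

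The base at the annotated start bears on PCIF1, whose substrate is an adenosine at that place in the transcript. Of the 87 genes 43 began with A (49.4%), 40 with G and 4 with C, and 50.4% of all annotated promoters began with A. In the first run 72.7% began with A and in the third run 27.5%. At least 2-fold higher were 4 of 40 compared A-start genes in clone 1 and 3 in clone 2, 2 of 37 G-start genes in clone 1 and 3 in clone 2, and 2 of 4 C-start genes in each clone. Over all protein-coding genes compared, 2.25% of A-start genes were in clone 1 and 3.26% in clone 2, 1.52% and 2.09% of G-start genes, and 1.72% and 2.54% of C-start genes. Among members with 10 or more counts in control, 4 of 40 A-start genes were higher in clone 1 and 3 in clone 2, 0 of 35 G-start genes in clone 1 and 1 in clone 2, and 0 of 2 C-start genes in either. The median log2 ratio was -0.06 and -0.08 for A-start and 0.003 and 0.02 for G-start genes in clone 1 and clone 2. An annotated start need not be the base used in these cells, and cap methylation was not measured.

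The coding sequences differ in whether they match a pattern of the KRAB A box. The pattern is fixed and strict, so a gene without a match may still encode a KRAB domain. A KRAB A pattern was found in 75 of 99 coding sequences, and the fingers numbered from 0 to 26 with a median of 12. With the pattern, 8 of 70 compared genes were at least 2-fold higher in clone 1 and 9 in clone 2. Without it the number was 1 of 23 in both, ZNF835. Over all compared genes, 2.27% and 3.34% were. ZNF835 and, with the pattern, ZNF610, ZNF677, ZNF813 and ZNF836 had to come out higher because of the floor. Counted over genes with 10 or more counts in control, 4 of 66 with the pattern were higher in clone 1 and 5 in clone 2, and 0 of 22 without it in either, so no difference is read from these counts. The median ratios were 0.01 and 0.04 with the pattern and -0.12 and -0.09 without it.

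The partner machinery of KRAB proteins was examined as a list of 30 genes, all of which passed the floor. None was 2-fold off control in either clone. The median log2 ratio was -0.10 in clone 1 and -0.14 in clone 2, against -0.005 and -0.004 over all genes, and 9 and 8 of the 30 were above 0. TRIM28, the co-repressor that KRAB domains bind, lies beyond ZNF446 near the chromosome end, at chr19:58544064-58550722. It had 619.18 in clone 1 and 615.39 in clone 2, against 845.41 in control (-0.45 and -0.46), below the yardstick range in both. MORC2, an ATPase that works with the HUSH silencing complex, had 93.43, 91.43 and 127.16 (-0.44 and -0.47). HDAC1, a histone deacetylase, had 137.32 in clone 1, 119.48 in clone 2 and 157.81 in control, and RESF1, a partner of SETDB1, had 227.49, 205.89 and 258.46. Both clones were below control in each of the 4, but MORC2, HDAC1 and RESF1 stayed inside the yardstick range.

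Of 16 genes for writing, reading and removing DNA methylation, none was 2-fold off. Their medians were -0.04 in clone 1 and -0.08 in clone 2. TET1, which oxidizes 5-methylcytosine, had 81.73 in clone 1 and 99.85 in clone 2, against 72.82 in control. DNMT3B, a de novo methyltransferase, had 171.54, 207.24 and 155.98. MBD4, a glycosylase that repairs mismatches at methylated CpG, had 238.01 in clone 1, 249.92 in clone 2 and 208.44 in control. UHRF1, which brings DNMT1 to replicated DNA, had 381.24 in clone 1, 295.01 in clone 2 and 389.43 in control (-0.03 and -0.40), below the yardstick range in clone 2.

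Transcription start sites on the opposite strand within 1000 bases gave another reading of some promoters. ZNF528-AS1 starts 58 bases from ZNF528 and had 42.97 in clone 1 and 48.42 in clone 2, against 17.39 in control (1.26 and 1.43), higher in both clones as ZNF528 was. ZNF470-DT starts 27 bases from ZNF470 and had 27.61, 29.45 and 17.87 (0.60 and 0.69), inside the range for its count. ZNF460-AS1 starts 283 bases from ZNF460, in the third run, and had 80.72 in clone 1 and 94.46 in clone 2, against 45.003 in control (0.83 and 1.05). Both ratios were above the range for its count, while ZNF460 had 290.28 in clone 1 and 299.36 in clone 2, against 264.35 in control (0.13 and 0.18). PPP2R1A, a phosphatase subunit gene 707 bases from ZNF836, had 513.60 in clone 1 and 501.55 in clone 2, against 508.62 in control. ZNF132-DT had 23.71, 24.04 and 29.66 beside ZNF132, which was at 0. Whether reads of the opposite strand were kept apart in counting is not given in the sources used here.

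Set against other genes, the 19q13.4 genes had a share of 2-fold higher members (9.68% in clone 1, 10.8% in clone 2) that other ZNF sets reached in part. ZNF610, ZNF677, ZNF835, ZNF836 and ZNF813 are in that share and passed the floor only through the clones. They had to come out higher, though ZNF836 and ZNF813 not necessarily by 2-fold. Of the 88 genes with 10 or more counts in control, 4 were higher in clone 1 and 5 in clone 2. Of all such genes 1.21% and 2.08% were. The other sets below were counted on the floor of the mean only. Of 31 compared ZNF genes of 19p12, 3 were at least 2-fold higher in clone 1 (9.68%) and 2 in clone 2 (6.45%), but their medians were 0.47 and 0.36. The 60 of 19q13.1 to 19q13.3 gave 2 and 4, with medians of 0.15 and 0.30. The 138 of chromosomes 1 to 11 gave 5 and 8, with medians of -0.003 and 0.04. The 44 of 19p13 gave 1 and 2, with medians of 0.03 and -0.03. The 87 of the remaining chromosomes gave 1 in each clone (1.15%), with medians of -0.057 and -0.045. The 19q13.4 genes thus had a median close to 0 and their high ratios in single genes, while in 19p12 the median itself was higher. Of the 59 compared coding genes of other kinds from the same start to the chromosome end, 2 were at least 2-fold higher in each clone (3.39%), with medians of -0.17 and -0.10. These differences between sets were not tested.

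**Figure D4:**
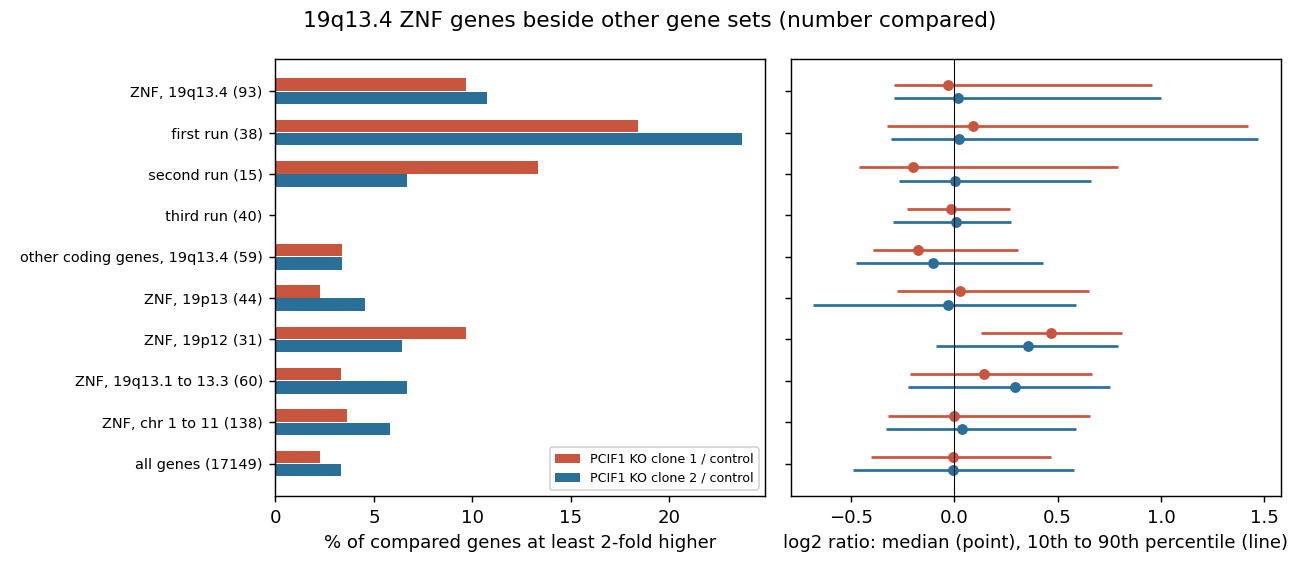
Left, percent of compared genes at least 2-fold above control; right, median (point) and 10th to 90th percentile (line) of the log2 ratio, for clone 1 and clone 2 in each gene set, with the number of compared genes in brackets. The first run reaches 18.4% and 23.7% on the left (8.82% and 14.7% where only genes with 10 or more counts in control are counted), the third run none, and the 19p12 genes have the highest medians, 0.47 and 0.36.

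The summed normalized counts were 3759168 in clone 1, 3823178 in clone 2 and 3760730 in control, which the authors' scaling sets and which is no measure of depth. PCIF1 itself had 269.56 in clone 1 and 239.27 in clone 2, against 239.46 in control. An edit of a few bases need not alter nascent transcription, so this is no check of the labels. Of 7 melanocyte markers MITF was plainly present, at 141.97 in clone 1, 259.16 in clone 2 and 168.54 in control. PMEL had 21.34, 23.76 and 48.41. TYR was at 0 in all groups, SOX10 was at 0 in clone 1 and control and at 6.08 in clone 2, and MLANA, DCT and TYRP1 had at most 6.81, so the pigment cell program was largely absent. Of 6 markers of other cells CD3E was at 0 in all groups, KRT5 and PTPRC had at most 1.10 and the highest value was 27.79, for COL1A1 in clone 1. EPCAM, an epithelial marker below the floor, had 9.95 in clone 1, 4.48 in clone 2 and 12.62 in control, and PECAM1 had 7.22, 6.05 and 6.44. The part of these marker differences in the results above was not tested.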

How the data were processed

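PRO-seq libraries of 3 replicates per group were made from 1000000 cells each with 40000 Drosophila S2 cells added, and sequenced as paired 42 nt reads to an average of 50000000 reads, per the labels and the design text. Per the file header, the authors deposited a signal for each gene, which is a group's mean normalized count per kb of gene length. Tools listed in the submitters' processing notes, without roles, are DESeq2, featureCounts, Bowtie 1.2.2 and cutadapt 1.14, and the builds are GRCh38.p12, hg38 and dm3. Not given in the sources used here are the counted feature, the strand setting and the use of the spike-in. The lengths match merged exons (within 5% for 73 of the 99 genes against GENCODE release 44), and exons are a median of 27.7% of the span of these genes, so reads of introns may not enter. Depth per library is unknown.

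The header names 1 column more than the rows hold. The symbol is taken to be the missing one, since the cell after the identifier equals the exon length for 64.4% of 57754 identifiers. Symbols and positions come from GENCODE by identifier. The signal was multiplied by length to give a normalized count, the floor was a mean of 10 over the groups, and ratios used a pseudocount of 1. The planned floor and ratios need no replicates, and the planned fit per library could not be made with 1 mean per group, so no p-value exists. Named were members at least 2-fold off control above the floor, members at 0 in 1 group with 10 or more in another, the 3 highest per kb in control, the 3 largest ratios of clone 2 to clone 1 in each direction at a mean of 50 or more, an example per run, and the 4 genes of each list with the largest mean absolute log2 ratio. Others are named as examples chosen after their values were seen. Members and lists were chosen with earlier results of these data known. KRAB and finger patterns were found in translated GENCODE coding sequence of hg38, and promoter windows of 300 bases were taken from RefSeq. Alignments used Biopython 1.88, and the rest Python 3.11.15, pandas 2.3.3 and numpy 2.4.6. The ratio function and the 2-fold cut were tested on simulated data, and the grouping into runs was not.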

Additional observations from a re-analysis of the deposited data

How the results depend on the processing

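No paired analysis was possible because the table holds 1 mean per group. For the same reason leaving out each replicate and a replicate block were not run. Counts and medians were recomputed under each setting, and 59 of 69 values stayed close to those reported (a count within 1.5 times). The other 10 follow. With a floor of 50 on the mean, 4 members were at least 2-fold higher in clone 1 and 4 in clone 2. Of all genes on that floor 0.999% and 1.79% were. On it 0 members were lower in clone 1 (0.428% of all) and 0 were higher in clone 2 than in clone 1 (0.336%). ZNF677 is among the 4 in each clone, and with a control of 0 it passed that floor only through the clones. A floor of 10 on control was added after the data were seen. There 4 were higher in clone 1 (1.21% of all) and 5 in clone 2 (2.08%). At 1.5-fold, 1 was lower in clone 2 than in control (7.23% of all compared genes). Lower in clone 2 than in clone 1 were 2 (3.8% of all). With a pseudocount of 0.5, or with values per kb, 1 was lower in clone 2 than in clone 1 (ZNF578, at -0.996 with a pseudocount of 1). Among the ratios of 22 named members under the alternatives, 156 of 176 moved by less than the central spread between the clones, 20 moved further and 0 changed sign. Both stricter floors compare fewer genes, and among the genes dropped are ZNF610, ZNF835, ZNF836 and ZNF813. Depth per library is not known, and no replicate error stands behind any value.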

Other observations

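Rows of the same stretch of chromosome 19 that are no protein-coding ZNF genes held clone differences of a similar size. Of 57 compared noncoding rows, 3 were at least 2-fold higher in clone 1 and 5 in clone 2 (all compared genes: 2.27% and 3.34%). ZNF542P, whose span overlaps that of ZNF582 on the other strand, had 1.97 counts in clone 1 and 40.94 in clone 2, against 2.53 in control. ZNF818P, a pseudogene between ZNF665 and ZNF677, had 59.97 in clone 1 and 8.51 in clone 2, against 16.41 in control. Both are transcribed pseudogenes, and each was high in 1 clone and not in the other.

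ZNF649-AS1, which runs against ZNF649, had 8.59 in clone 1, 24.54 in clone 2 and 4.39 in control. It starts at position 51888025, inside the RefSeq promoter window of ZNF577 (51887902-51888201), which is on the other strand. MIR125A, the gene of a microRNA near the start of the stretch, had 41.70 in clone 1 and 56.94 in clone 2, against 23.77 in control. Its log2 ratio was inside the yardstick range in clone 1 (0.79) and above it in clone 2 (1.23). MIR125A lies within SPACA6 on the same strand, which had 277.69 in clone 1, 255.33 in clone 2 and 275.31 in control.

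The zinc finger genes of the stretch that are not named ZNF include imprinted PEG3, which had 12.80 in clone 1, 15.68 in clone 2 and 0 in control. ZIK1, 455 bases from ZNF416 on the other strand, had 44.05 in clone 1 and 191.88 in clone 2, against 49.78 in control (log2 ratios of -0.17 and 1.93), while those of ZNF416 were 0.02 and 0.24. ZIM3, which carries a strong KRAB repressor domain, had at most 1.81, in control, and ZSCAN4, a gene of early embryos, had 0.70 in clone 2 and 0 elsewhere.

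IL11, an interleukin gene in the gap between the first and second runs, had 145.89 in clone 1 and 267.13 in clone 2, against 415.82 in control (-1.505 and -0.64). TMEM238, close to it, had 15.91, 23.22 and 4.03 in the same order. These rows were picked after their values had been seen, and no replicate error stands behind them.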
